A study of Mus musculus with 9 samples.

Results

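The 29 genes described here encode mouse glutamate receptors and neuronal glutamate transporters: 4 AMPA receptor subunits (Gria1 to Gria4), 7 NMDA receptor subunits (Grin1, Grin2a to Grin2d, Grin3a and Grin3b), 5 kainate receptor subunits (Grik1 to Grik5), the delta receptor subunit Grid1, 7 metabotropic receptors (Grm2 to Grm8), the 3 vesicular transporters Slc17a6, Slc17a7 and Slc17a8, and the plasma membrane transporters Slc1a1 and Slc1a6. They were taken by gene symbol from a table of 28991 genes, and all 29 were found. RNA was sequenced from tissue labelled mesencephalon (midbrain) of C57BL/6 mice in 9 libraries, 3 in each of 3 groups. Controls received saline. The MPTP group received MPTP intraperitoneally for 7 days, and the MPTP+PF4 group received the same MPTP and PF4 intravenously every 3 days, so both treated groups carried the toxin. MPTP is converted in the brain to a compound that the dopamine transporter carries into dopaminergic neurons, where it poisons respiration, and PF4 (platelet factor 4) is a small chemokine stored in platelet granules. The design text gives 3 mice per group; neither the age of the mice nor an intravenous vehicle for the MPTP group is given there.

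Glutamate is the main excitatory transmitter of the brain. Vesicular transporters load it into synaptic vesicles, AMPA and kainate receptors pass the fast postsynaptic current, NMDA receptors admit calcium when glutamate and depolarisation coincide, and metabotropic receptors act through G proteins. In the midbrain, glutamatergic inputs drive the firing of dopaminergic neurons, and Slc17a6 (VGLUT2) is the vesicular transporter typical of brainstem, midbrain and thalamic neurons, while Slc17a7 (VGLUT1) is typical of cortical and hippocampal neurons.

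The libraries differed in regional transcripts within each group. Total counts lay between 32216850 and 36039211. The summed level of 7 midbrain dopaminergic genes was 1256 and 1184 CPM (read counts scaled to the TMM-adjusted library total) in controls 2 and 3 and 340 CPM in MPTP+PF4 2, but only 44.0 to 74.8 CPM in control 1 and the 5 remaining libraries. The dopamine transporter Slc6a3 was at 0.055 to 0.957 CPM in those 6, and Pitx3 and En1 were at 0 in some of them. Th, Slc18a2 and Ddc were also lower in those 6 than in controls 2 and 3 and MPTP+PF4 2. Nr4a2, of the same list, was not split that way, at 33.6 CPM in MPTP 3 against 18.9 and 20.1 CPM in controls 2 and 3. In control 1, which received saline, Slc6a3 at 0.392 CPM and En1 at 0 go against the tissue label. The other 5 received MPTP, so for these genes the toxin and the tissue taken cannot be told apart there. The summed level of 9 striatal projection neuron genes ran the other way, with 210 to 332 CPM in controls 2 and 3 and MPTP+PF4 2, 1041 CPM in MPTP 2 and 3931 to 8462 CPM in the remaining 5. Cerebellar granule and Purkinje genes were low throughout, at 7.33 to 22.8 CPM for 6 genes, with Gabra6 at 0 in every library. The 6 general neuronal genes summed to 3064 and 3888 CPM in controls 2 and 3, against 4727 to 5319 CPM for the other 7. Rbfox3, Snap25, Syt1 and Map2 were each lowest in controls 2 and 3. Tubb3 (322 and 291 CPM there, 186 to 398 CPM in the others) and Stmn2 (517 and 453 CPM there, 146 to 467 CPM in the others) were not. In bulk tissue, fewer cells of a type and less RNA per cell cannot be told apart. How far these regional differences enter the results below was not tested. For the members, comparisons with controls are therefore given with and without the libraries concerned. Those of genes that work with the receptors are given with all 9 libraries only.

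Compared per transcript length, as FPKM in the deposited table, the members covered a wide range. Slc17a7 had the highest mean over the 9 libraries at 68.9 FPKM, followed by Gria1 at 67.8 FPKM, the obligatory NMDA subunit Grin1 at 58.9 FPKM and Gria2 at 46.3 FPKM. These 4 overlapped across libraries, since Slc17a7 alone ranged from 3.31 to 173 FPKM. Grik5, Grm5, Slc1a1, Gria3, Slc17a6 and Gria4 had means of 24.1 to 32.3 FPKM, and their ranges also overlapped. The 18 members from Grm7 (12.7 FPKM) to Grin3b (0.461 FPKM) were lower. Grm6, the receptor of retinal ON bipolar cells, had 0 counts in all 9 libraries, which allows up to 0.0821 to 0.1 CPM per library at 3 counts. The other 28 members entered the tests. Their median coefficient of variation over the 9 libraries was 44.1% on the CPM scale, beside 30.3% for all 17285 genes tested.

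**Figure D1:**
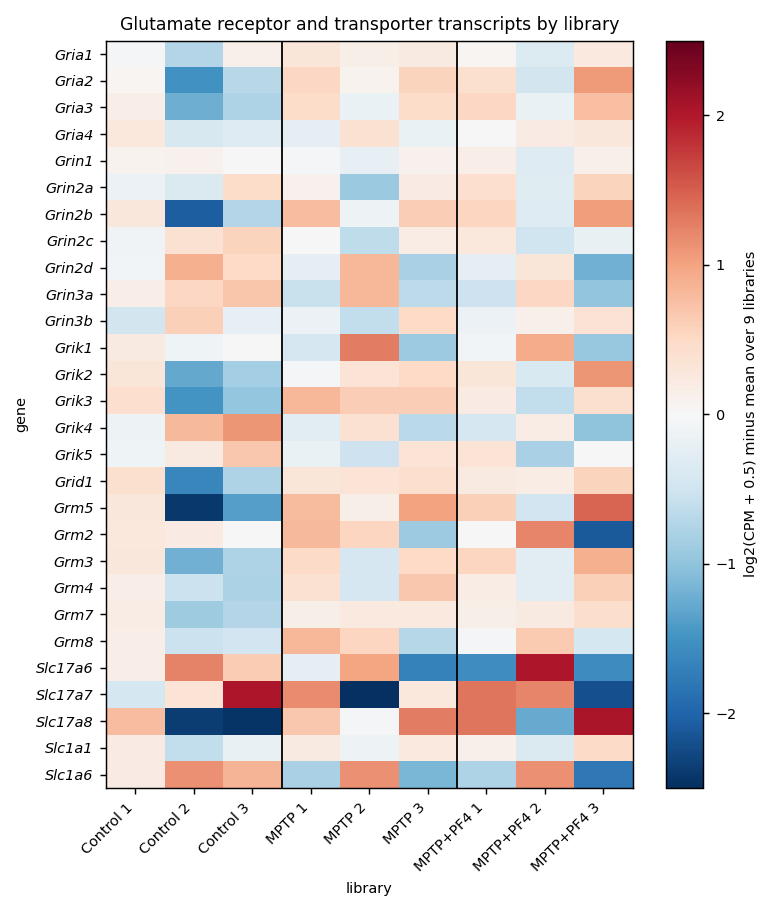
Level of the 28 members with counts (rows) in the 9 libraries (columns, groups separated by lines), as log2(CPM + 0.5) minus the gene's mean over the libraries; red is above and blue below that mean. Control 2 had the lowest value of 12 members and MPTP+PF4 3 the highest of 11, while Grin1 was nearly even.

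Proximal promoter sequences are shown for 4 members, the vesicular transporters Slc17a6 and Slc17a7, whose levels differed widely between libraries of one group, Gria2, whose share of the AMPA subunits differed between libraries, and Grin1, the steadiest member. Each window runs from 250 bases before to 50 bases after a RefSeq start site (GRCm38.p6), 5′ to 3′ on the gene's strand. The windows are chr7:51621580-51621879 (plus strand, the first of 2 windows of Slc17a6), chr7:45163671-45163970 (plus strand, Slc17a7), chr3:80802786-80803085 (minus strand, Gria2) and chr2:25319138-25319437 (minus strand, Grin1). Capitals mark a GC box (GGGCGG or its complement CCGCCC), the core of a site for Sp family factors, and in Gria2 the letters CGCTGTCC, the complement of GGACAGCG, which is the right arm of the RE1 element bound by the neuronal repressor REST.
Slc17a6: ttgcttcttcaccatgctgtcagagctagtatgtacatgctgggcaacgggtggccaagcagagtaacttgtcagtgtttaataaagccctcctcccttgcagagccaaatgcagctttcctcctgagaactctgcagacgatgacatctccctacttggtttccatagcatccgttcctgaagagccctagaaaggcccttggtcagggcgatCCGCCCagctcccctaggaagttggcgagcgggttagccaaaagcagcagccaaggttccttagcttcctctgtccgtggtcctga
Slc17a7: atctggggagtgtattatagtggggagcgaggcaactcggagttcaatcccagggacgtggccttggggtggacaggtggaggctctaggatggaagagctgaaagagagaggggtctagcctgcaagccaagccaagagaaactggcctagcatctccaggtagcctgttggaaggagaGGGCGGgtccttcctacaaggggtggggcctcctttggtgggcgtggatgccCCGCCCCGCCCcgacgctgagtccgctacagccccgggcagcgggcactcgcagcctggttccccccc
Gria2: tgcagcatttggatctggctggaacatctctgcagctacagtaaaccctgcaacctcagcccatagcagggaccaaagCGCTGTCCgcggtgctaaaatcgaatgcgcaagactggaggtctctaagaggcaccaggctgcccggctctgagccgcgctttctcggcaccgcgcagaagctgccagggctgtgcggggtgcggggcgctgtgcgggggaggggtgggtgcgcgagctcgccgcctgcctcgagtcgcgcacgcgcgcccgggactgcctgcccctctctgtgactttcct
Grin1: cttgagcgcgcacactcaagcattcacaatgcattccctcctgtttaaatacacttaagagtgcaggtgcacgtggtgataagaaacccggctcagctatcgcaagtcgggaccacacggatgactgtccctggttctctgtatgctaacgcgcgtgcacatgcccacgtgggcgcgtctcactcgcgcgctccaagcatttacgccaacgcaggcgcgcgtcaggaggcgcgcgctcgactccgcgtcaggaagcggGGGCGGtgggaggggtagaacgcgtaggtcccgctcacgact

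Of the 29 members, 20 had at least 1 window in the RefSeq table, 25 windows in all. A GC box on either strand was in 14 of these 25 windows and in 35.7% of all 32851 windows of the table. Slc17a7 held 3 GC boxes, a pair of them overlapping, Slc17a6 and Grin1 held 1 each and Gria2 none. For the arms of RE1 only exact matches were counted. The right arm was in 1.26% of all windows and among the members only in Gria2. The left arm (TCAGCACC) was in 1.65% of all windows and among the members only in Grm2. In Gria2 the right arm was closely followed by letters differing in 1 place from GGTGCTGA, the complement of the left arm. In Grm2 the left arm was followed by letters differing in 1 place from GGACAGCG, the right arm. How often such near matches occur in all windows was not counted. The cAMP response element TGACGTCA was in 1.79% of all windows and in none of the members'. The member windows had a median of 13 CG dinucleotides, beside 7 over all windows, with 33 in Grin1, 26 in Gria2, 13 in Slc17a7 and 8 in Slc17a6. These matches describe letters in the windows and show no binding.

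AMPA receptors are tetramers of Gria1 to Gria4, and Gria2 makes the channel nearly impermeable to calcium. Gria2 (chr3:80681450-80802835, GENCODE on GRCm38) was at 448, 151 and 267 CPM in controls 1 to 3. It was at 617, 460 and 633 CPM with MPTP, and 572, 315 and 904 CPM after MPTP+PF4. All 3 MPTP libraries lay above all 3 controls, control 1 by a small margin, and the MPTP+PF4 libraries overlapped both other groups. Gria1 (chr11:57011387-57330244) was at 369, 226 and 409 CPM in controls, 462, 416 and 440 CPM with MPTP, and 387, 297 and 443 CPM after MPTP+PF4. Its MPTP libraries lay just above the controls, with 416 CPM in MPTP 2 and 409 CPM in control 3 as the nearest pair. Gria3 was at 174, 66.2 and 90.7 CPM in controls, 213, 138 and 213 CPM with MPTP, and 222, 138 and 262 CPM after MPTP+PF4. Its controls 2 and 3 were the lowest of the 9 libraries, and control 1 lay within both treated groups. Gria4, a subunit with fast kinetics, was at 128, 80.6 and 85.7 CPM in controls, 91.3, 140 and 95.2 CPM with MPTP, and 106, 123 and 130 CPM after MPTP+PF4, and all its groups overlapped.

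NMDA receptors join Grin1 with Grin2 subunits, which set the kinetics of the channel, or with the Grin3 subunits, which lower its calcium entry. Grin1 (chr2:25291181-25319187) was the steadiest member on the CPM scale, with a coefficient of variation of 11.1% and values of 261, 267 and 246 CPM in controls, 238, 213 and 268 CPM with MPTP, and 276, 197 and 271 CPM after MPTP+PF4. Grin2b (chr6:135713233-136173511), which gives slow currents and is rich in the forebrain, was at 158, 30.7 and 78.0 CPM in controls, 221, 119 and 199.5 CPM with MPTP, and 188, 103 and 270 CPM after MPTP+PF4. Its 3 lowest libraries were controls 2 and 3 and MPTP+PF4 2, the ones low in striatal genes. Grin2a, the subunit of faster adult receptors, was at 93.2, 79.4 and 141 CPM in controls, 111, 53.9 and 119 CPM with MPTP, and 137, 82.9 and 152 CPM after MPTP+PF4, with every group overlapping. Grin2d and Grin3a were highest in controls 2 and 3, MPTP 2 and MPTP+PF4 2, the 4 libraries with the lowest striatal sums. Grin2d, of the brainstem and diencephalon, was at 14.7, 28.8 and 21.9 CPM in controls, 12.8, 27.8 and 8.58 CPM with MPTP, and 13.1, 19.1 and 6.42 CPM after MPTP+PF4. Grin3a ranged from 25.7 CPM in MPTP+PF4 3 to 92.8 CPM in MPTP 2, Grin2c from 19.8 to 45.7 CPM, and Grin3b from 0.657 to 2.17 CPM.

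Kainate receptors divide into Grik1 to Grik3, which form channels alone, and Grik4 and Grik5, which raise the affinity for the ligand and need a partner. Grik3 (chr4:125490700-125714173) was at 62.3, 16.3 and 23.7 CPM in controls, 82.9, 71.6 and 71.9 CPM with MPTP, and 53.8, 30.1 and 61.3 CPM after MPTP+PF4. It was the only member whose MPTP libraries lay above every control and also above every MPTP+PF4 library. The share of all genes with both of these differences was not counted. The 3 lowest values of Grik3 were in controls 2 and 3 and MPTP+PF4 2, the libraries low in striatal genes. Grik4 (chr9:42518135-42944493) was at 13.5, 26.3 and 32.5 CPM in controls, 12.1, 19.3 and 9.10 CPM with MPTP, and 10.9, 16.9 and 7.09 CPM after MPTP+PF4, highest in the 2 controls with dopaminergic transcripts. Grik2 ranged from 31.95 CPM in control 2 to 168 CPM in MPTP+PF4 3, and Grik1 from 6.59 to 33.0 CPM. Grik5 had the highest level of the family per length, and was at 115, 145 and 196 CPM in controls, 110, 86 and 157 CPM with MPTP, and 156, 70.3 and 124 CPM after MPTP+PF4. Its groups overlapped, with control 3 highest. Grid1, a synapse-organising member of the ionotropic family, was at 71, 17.1 and 31.2 CPM in controls, 66.4, 68.5 and 72.2 CPM with MPTP, and 62.7, 61.6 and 79.6 CPM after MPTP+PF4. Controls 2 and 3 stood below the other 7 libraries.

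Metabotropic receptors were led by Grm5 (chr7:87584168-88134907), a Gq-coupled receptor that is abundant in striatal neurons. Grm5 was at 252, 38.5 and 79.3 CPM in controls, 358, 229 and 419 CPM with MPTP, and 316, 148 and 574 CPM after MPTP+PF4. The highest library had 14.9 times the lowest, and the 3 lowest were again controls 2 and 3 and MPTP+PF4 2. Control 1 lay above MPTP 2, so the MPTP and control libraries overlapped. Grm7 (chr6:110645581-111567230), a presynaptic receptor coupled to Gi, had levels of 56.6, 26.7 and 29.7 CPM in controls, 55.4, 58.7 and 59.0 CPM with MPTP, and 54.7, 57.7 and 67.4 CPM after MPTP+PF4. Here controls 2 and 3 stood below the other 7 libraries, which included MPTP+PF4 2. Grm3, also found on astrocytes, was at 43.2, 15.1 and 20.7 CPM in controls, 49.9, 26.4 and 50.2 CPM with MPTP, and 51.7, 28.9 and 66.6 CPM after MPTP+PF4. Its lowest values were again in controls 2 and 3, followed by MPTP 2 and MPTP+PF4 2. The same 4 libraries were the lowest for Grm4, a presynaptic receptor that ranged from 17.1 to 48.4 CPM. The presynaptic receptors Grm8 and Grm2 were not split that way, Grm8 ranging from 7.36 to 22.5 CPM and Grm2 from 1.84 to 22.9 CPM.

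**Figure D2:**
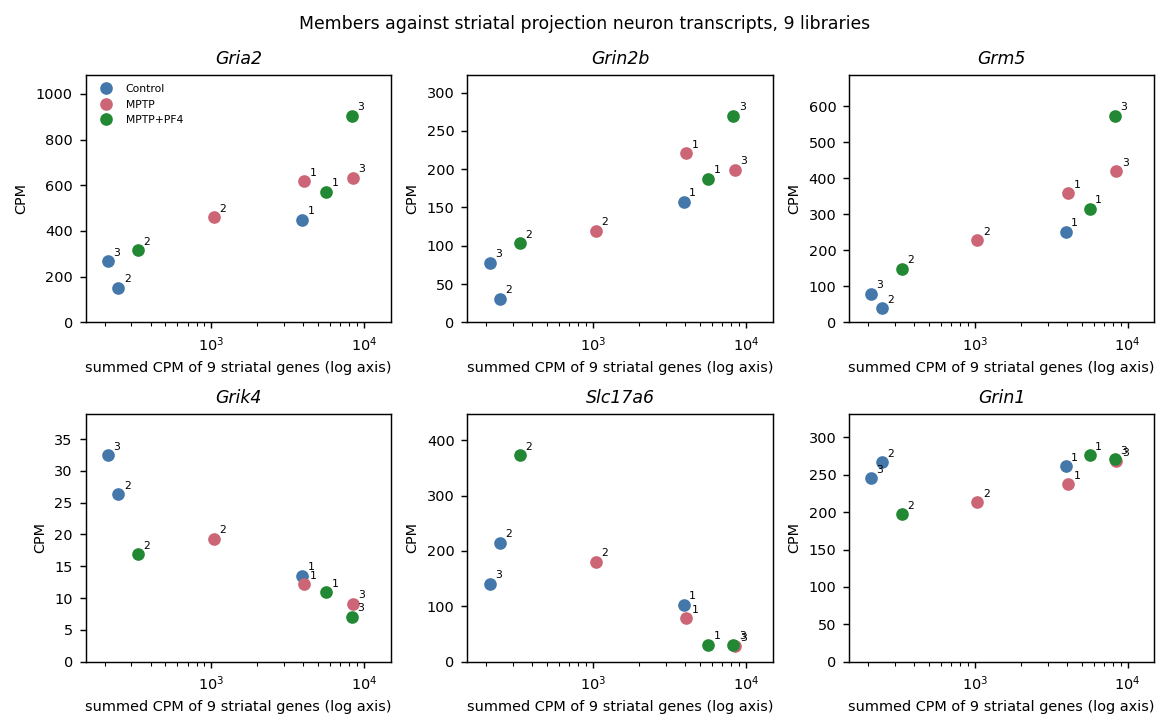
CPM of 6 members (vertical axes, linear) against the summed CPM of 9 striatal projection neuron genes (horizontal axes, log scale); each point is a library, coloured by group and numbered by replicate. Gria2, Grin2b and Grm5 were lowest in controls 2 and 3 and MPTP+PF4 2, Grik4 and Slc17a6 were low in the libraries with the highest striatal sums, and Grin1 stayed between 197 and 276 CPM.

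Across all members, 8 had their 3 lowest values in controls 2 and 3 and MPTP+PF4 2: Gria2, Grin2b, Grik2, Grik3, Grid1, Grm5, Slc17a8 and Slc1a1. None had its 3 highest values there. Over all 17285 genes tested these 3 libraries lay below the other 6 for 12.6% and above them for 10.3%. With MPTP 2, the library next lowest in striatal genes, added to these 3, Grik4, Grin2d, Grin3a, Slc17a6 and Slc1a6 were above the other 5 libraries, 5 members beside 9.95% of all genes. In the same split 7 members were below, Gria3, Grin2b, Grm3, Grm4, Grm5, Slc17a8 and Slc1a1, beside 11.5% of all genes. Both sets of libraries were chosen after their marker genes were seen, so these are descriptions with no test.

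The vesicular transporters had the 3 highest coefficients of variation among the members, 86.5% for Slc17a6 and Slc17a8 and 79.0% for Slc17a7. Slc17a6 (chr7:51622006-51671119) was at 103, 215 and 141 CPM in controls. It was at 78.2, 180 and 27.7 CPM with MPTP, and 30.7, 373 and 30.2 CPM after MPTP+PF4. MPTP+PF4 2 stood far above the other libraries of its group. Slc17a7 (chr7:45163949-45176142) followed neither the groups nor Slc17a6. It was at 93.8, 162 and 524 CPM in controls, 289, 9.27 and 153 CPM with MPTP, and 322, 299 and 27.7 CPM after MPTP+PF4. The lowest and the highest library differed 56.5 times on the CPM scale. The summed level of 7 cortical and hippocampal excitatory neuron genes was 54.5 to 108 CPM in controls, 64.7 to 207 CPM with MPTP and 59.5 to 96.6 CPM with MPTP+PF4. Its part in Slc17a7 was not tested. Slc17a8 (VGLUT3), carried by cholinergic and some serotonergic neurons, was at 12.7, 0.994 and 0.909 CPM in controls, 11.8, 7.08 and 18.3 CPM with MPTP, and 19.1, 2.72 and 31.2 CPM after MPTP+PF4.

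**Figure D3:**
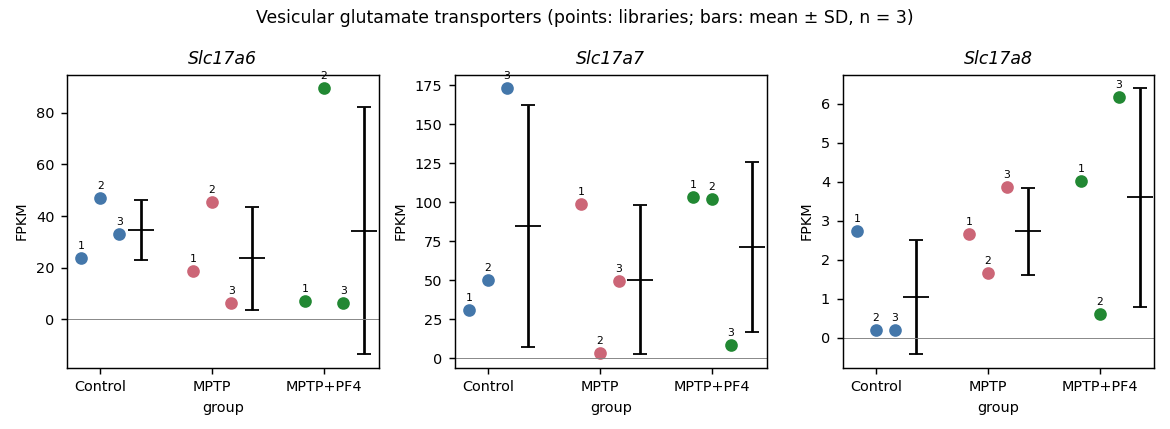
FPKM of the 3 vesicular glutamate transporters by group; points are libraries numbered by replicate, and the bars beside them give the mean ± SD of 3 libraries. Slc17a6 reached 89.7 FPKM in MPTP+PF4 2 against 6.95 and 6.43 FPKM in the other libraries of that group, and Slc17a7 spanned 3.31 to 173 FPKM.

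Of the plasma membrane transporters, Slc1a1, the neuronal carrier that also supplies cysteine, was at 140, 79.7 and 108 CPM in controls, 142, 112 and 144 CPM with MPTP, and 134, 95.3 and 170 CPM after MPTP+PF4. Control 2 was lowest and the groups overlapped. Slc1a6, typical of cerebellar Purkinje cells, was at 10.3, 20.3 and 16.5 CPM in controls, 4.84, 20.4 and 3.77 CPM with MPTP, and 5.04, 20.3 and 2.21 CPM after MPTP+PF4. Its 4 highest libraries were controls 2 and 3, MPTP 2 and MPTP+PF4 2, which were also the 4 with the highest Slc17a6.

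The first comparison set MPTP against control. None of the 28 members passed the threshold of an adjusted p under 0.05 in edgeR's quasi-likelihood test with Benjamini-Hochberg adjustment over all genes, beside 0% of all 17285 genes. The members' median log2 fold change was 0.27, with 17 members above 0 and 11 below, where the median of all genes was 0.013 and 50.9% lay above 0. At an unadjusted p under 0.05, 2 members were higher and 0 lower, while 5.32% of all genes were higher and 12.9% lower. The groups did not overlap for 3 members, Gria1, Gria2 and Grik3, all higher with MPTP, beside 9% of all genes higher and 9.19% lower.

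By family, all 4 AMPA subunits, Grid1 and all 6 tested metabotropic receptors had a log2 fold change above 0, from 0.15 for Gria4 to 1.44 for Grm5, and 6 of 7 NMDA subunits lay below 0. In the same test the smallest p values belonged to Grik3 (mean 34.1, SD 24.7 CPM over 3 controls, and mean 75.5, SD 6.47 CPM over 3 MPTP libraries), with a log2 fold change of 1.15 (SE 0.467) and an adjusted p of 0.265 in edgeR. Grm7 had 0.61 (SE 0.270; edgeR adjusted p 0.273), and Gria2 0.98 (SE 0.451). Grm5 had 1.44 (SE 0.690), Gria3 0.77 (SE 0.382) and Grik4 −0.83 (SE 0.428). The difference was smaller than its standard error for Slc17a6 (−0.68, SE 0.997) and Slc17a7 (−0.79, SE 1.16), and that of Slc17a7 was 0.24 without control 3 and −1.65 without MPTP 1. Slc17a6 was at −1.50 without MPTP 2 and −0.24 without MPTP 3.

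Among edgeR fits that left out 1 library, members were called only without control 1. Without it, 6 members were called in edgeR, all higher with MPTP: Gria3, Grid1, Grik3, Grm5, Grm7 and Slc17a8. The log2 fold change of Grik3 was then 1.92, that of Grm7 1.04, of Gria3 1.26 and of Grm5 2.52. The 6 are 21.4% of the members, beside 25.8% of all genes called in that fit. Leaving out control 2 or control 3 alone moved the values the other way. No member then had an unadjusted p under 0.05 in edgeR, beside 5.9% and 8.32% of all genes, and Grik3 had 0.82 and 0.94. With control 1 and MPTP+PF4 2 left out, 11 members were called (10 higher, and Grik4 lower), 39.3% of the members beside 32% of all genes, and Grm5 had a log2 fold change of 2.54 (SE 0.455) and Grik3 1.95 (SE 0.205). Without controls 2 and 3 and MPTP+PF4 2 instead, which leaves control 1 as the lone control and assumes that it varies like the other groups, none was called beside 0.00556% of all genes. The median over members was then 0.028, Grm5 had 0.41 (SE 0.454) and Grik3 0.28 (SE 0.193). Both sets of libraries were chosen after seeing the data.

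**Figure D4:**
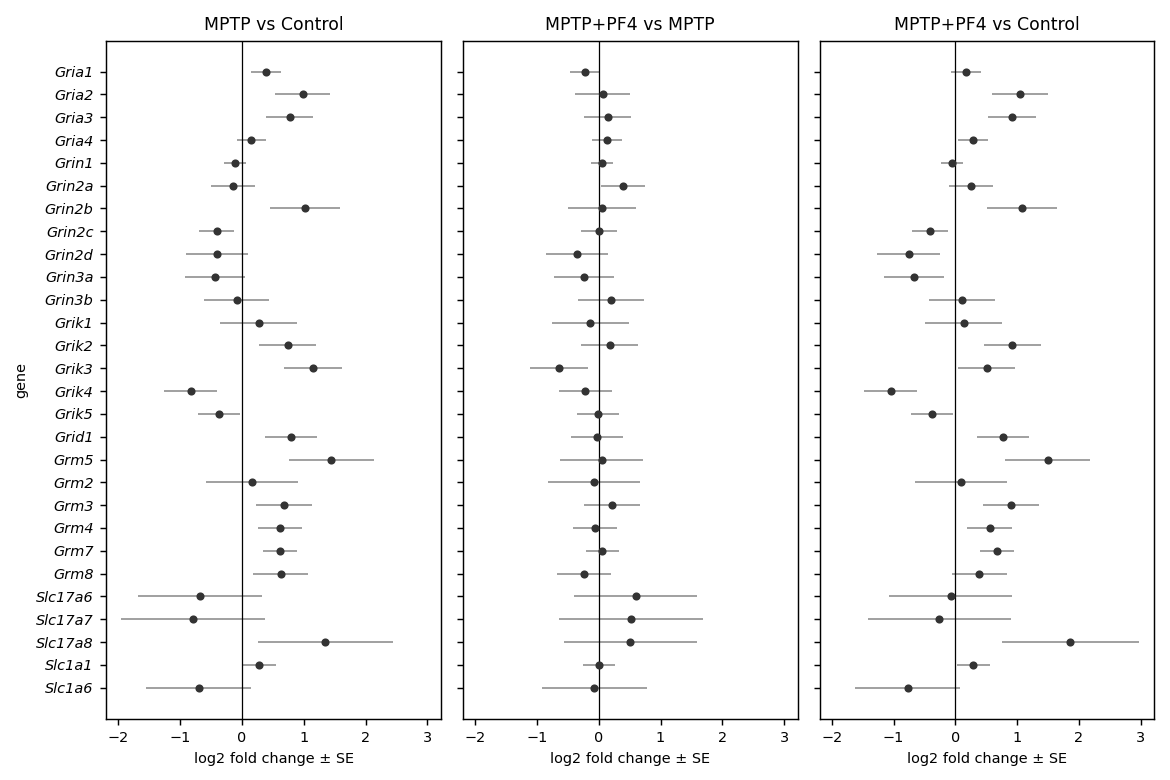
Log2 fold change (horizontal axis) with its standard error (bars) for the 28 tested members (vertical axis) in the 3 comparisons, from edgeR's fit to all 9 libraries. The panels of MPTP and of MPTP+PF4 against control share the control libraries; in the middle panel 15 members lay above 0 and 13 below.

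MPTP+PF4 against MPTP asked what differed when PF4 was added. None of the 28 members passed in edgeR, beside 0% of all genes, and none had an unadjusted p under 0.05, where 0.648% of all genes were higher and 1.36% lower. The median over members was 0.026, beside 0.016 over all genes, and 15 members lay above 0, beside 53.4% of all genes. Scaled by library totals alone, 9 members lay above 0, beside 37.0% of all genes, and the medians were −0.064 over members and −0.063 over all genes. Grik3 was the 1 member whose groups did not overlap, lower with PF4, beside 4.07% of all genes lower and 3.04% higher. Its mean was 48.4 CPM (SD 16.3, n = 3) in the group given PF4, against 75.5 CPM (SD 6.47, n = 3). The log2 fold change was −0.64 with SE 0.463, and the adjusted p in edgeR was 1.00. Grin2a had 0.39 (SE 0.357), Gria1 −0.23 (SE 0.245), Grin2d −0.35 (SE 0.506) and Gria4 0.14 (SE 0.237). With 1 library left out, Grik3 was at −0.39 without MPTP+PF4 2, Grin2a at 0.092 without MPTP 2 and 0.61 without MPTP+PF4 2, Gria1 at −0.081 without MPTP+PF4 2 and −0.36 without MPTP+PF4 3, and Gria4 at 0.0057 without MPTP 1 and 0.34 without MPTP 2. Slc17a6 had 0.60 (SE 0.996) and turned to −1.65 without MPTP+PF4 2. Grin2d turned to 0.25 without MPTP 2. Slc17a7 had 0.52 (SE 1.16) and −0.042 without MPTP 2.

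MPTP+PF4 against control shares its controls with the first comparison, so the values are given side by side. None of the 28 members passed in edgeR, beside 0% of all genes, and the median over members was 0.27, with −0.0045 over all genes. Above 0 lay 19 members, beside 49.8% of all genes. At an unadjusted p under 0.05, 3 members were higher, Grm7, Gria3 and Gria2, and 1 was lower, Grik4, beside 6.25% of all genes higher and 12.1% lower. No member's groups were free of overlap, beside 5.62% of all genes higher and 6.77% lower. Grm7 had a log2 fold change of 0.67 (SE 0.271; edgeR adjusted p 0.268), against 0.61 with MPTP alone. Grik4 had −1.05 (SE 0.431) against −0.83, Gria3 0.91 (SE 0.383) against 0.77, Gria2 1.05 (SE 0.451) against 0.98 and Grm5 1.49 (SE 0.691) against 1.44. Grm3 had 0.90 (SE 0.452) against 0.68. Grik3, the member with the smallest p with MPTP alone, had 0.51 (SE 0.463). Slc17a6 had −0.079 (SE 0.992) and Slc17a7 −0.26 (SE 1.16). The sign of Slc17a6 turned without control 2 (0.25), MPTP+PF4 1 (0.39) or MPTP+PF4 3 (0.40), and that of Slc17a7 without control 3 (0.76) or MPTP+PF4 3 (0.26).

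Among fits that left out 1 library, members were again called only without control 1. Without it 11 members were called in edgeR, 10 higher and Grik4 lower, 39.3% of the members beside 25.6% of all genes. With control 1 and MPTP+PF4 2 left out 14 were called, 12 higher, and Grik4 and Slc17a6 lower, 50% of the members beside 34.0% of all genes. Without controls 2 and 3 and MPTP+PF4 2 none was called, beside 0.00556% of all genes, and the median was 0.14.

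The makeup of the receptors was compared as shares of FPKM within a library, which do not depend on library size. Grin2b made up 50.7%, 19.7% and 25.3% of the sum of Grin2a and Grin2b in controls 1 to 3. It was 54.8%, 57.4% and 50.5% with MPTP and 45.5%, 43.2% and 52.0% with MPTP+PF4. Controls 2 and 3 stood apart from the other 7 libraries, and control 1 lay within the MPTP range. The mean share was 31.9 ± 16.5% in controls, 54.2 ± 3.47% with MPTP and 46.9 ± 4.55% with MPTP+PF4 (SD, n = 3 each), and an exact permutation test, two-sided, returned p = 0.2 for MPTP against control, 0.2 for MPTP+PF4 against MPTP and 0.3 for MPTP+PF4 against control. The difference from control was 22.3 points for MPTP, and 31.7 without control 1. For MPTP+PF4 it was 15.0 points, but 8.89 without control 2 and 24.4 without control 1. With 3 libraries against 3 this test cannot go below 0.1. Over the 9 tests of shares the smallest Benjamini-Hochberg adjusted p was 0.45.

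Gria2 made up 25.8%, 17.1% and 18.9% of the 4 AMPA subunits in controls, 29.9%, 25.3% and 30.5% with MPTP and 29.3%, 22.0% and 35.6% with MPTP+PF4. The exact permutation p was 0.2 for either treated group against control and 1 between them. Controls 2 and 3 were lowest and MPTP+PF4 2 next, and Gria1 took 54.9% in control 3 and 32.6% in MPTP+PF4 3. The summed FPKM of the 4 AMPA subunits itself ranged from 77.9 in control 2 to 221 in MPTP+PF4 3. Slc17a7 made up 56.5%, 51.6% and 84.1% of the sum of Slc17a6 and Slc17a7 in controls, 84.0%, 6.78% and 88.7% with MPTP and 93.7%, 53.2% and 56.5% with MPTP+PF4. These values overlapped in all groups, with exact permutation p of 0.9, 0.8 and 0.6 for MPTP against control, MPTP+PF4 against MPTP and MPTP+PF4 against control. MPTP 2 was the only library in which Slc17a6 exceeded Slc17a7 in FPKM.

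**Figure D5:**
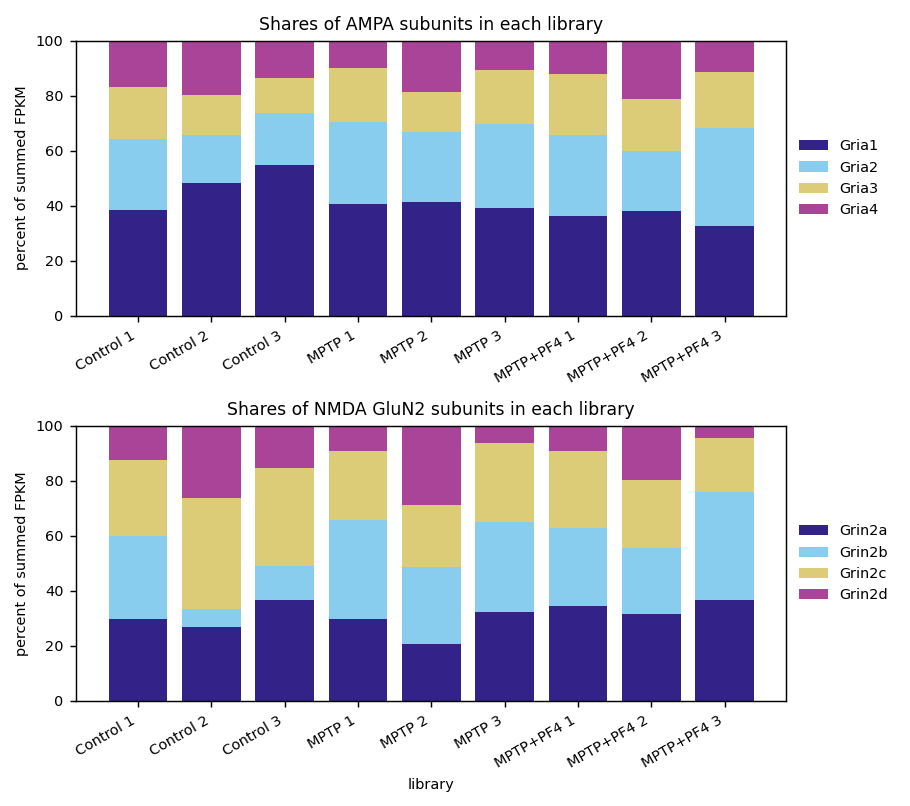
Share of each AMPA subunit (top) and each Grin2 subunit (bottom) in the summed FPKM of its set, as stacked bars in percent for the 9 libraries. The Grin2b share of the 4 Grin2 subunits was 6.59% and 12.4% in controls 2 and 3, against 24.1% to 39.5% for the other 7 libraries, while Grin2d ranged from 4.34% to 28.8%.

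Genes that work with these receptors were read from 4 lists of 44 genes in all, every one of which was tested. None passed in edgeR in any comparison. The values of these genes are from the fit to all 9 libraries, and fits with libraries left out are not given for them. At an unadjusted p under 0.05, 3 were higher and 1 lower for MPTP against control, 0 and 1 for MPTP+PF4 against MPTP, and 1 and 1 for MPTP+PF4 against control, beside the shares of all genes of 5.32% and 12.9%, 0.648% and 1.36%, and 6.25% and 12.1%. The median log2 fold change over the 44 was 0.47 for MPTP against control, 0.0071 for MPTP+PF4 against MPTP and 0.24 for MPTP+PF4 against control. Of the 12 AMPA auxiliary subunits 11 lay above 0 with MPTP, beside 50.9% of all genes. Among them Cacng5, which modulates AMPA channel gating, was at 23.4, 10.9 and 15.1 CPM in controls, 58.5, 37.8 and 19.7 CPM with MPTP, and 20.3, 21.3 and 11.7 CPM after MPTP+PF4. Its log2 fold changes were 1.23 (SE 0.434) for MPTP against control and −1.12 (SE 0.433) for MPTP+PF4 against MPTP. Cacng8, Cacng3 and Shisa9, also auxiliary subunits, had log2 fold changes of 0.57 (SE 0.261) for MPTP against control in Cacng8, and of 0.78 (SE 0.381) and 0.67 (SE 0.335) for MPTP+PF4 against control in Cacng3 and Shisa9. The kainate auxiliary subunits Neto1 and Neto2 were lowest in controls 2 and 3 and MPTP+PF4 2 (15.0 to 25.3 and 46.1 to 89.6 CPM). Of 20 postsynaptic scaffolds and kinases 18 lay above 0 with MPTP, beside the same 50.9%, and Homer3, a scaffold of group I metabotropic receptors, was the one with the smallest p and lay below 0. Homer3 was at 6.22, 16.8 and 23.1 CPM in controls and at 4.19 to 7.53 CPM in the 6 treated libraries, a log2 fold change of −1.50 (SE 0.445) with MPTP, and control 1 lay within the treated range. Of the other scaffolds, Grip1 had 0.55 (SE 0.231) for MPTP against control, Pick1 −0.24 (SE 0.139) for MPTP+PF4 against MPTP and Dlg1 0.78 (SE 0.381) for MPTP+PF4 against control. Of 10 genes of glial uptake and glutamate metabolism 5 lay above 0 with MPTP. Slc1a3, the astrocytic transporter GLAST, was at 484, 139 and 189 CPM in controls, 681, 647 and 589 CPM with MPTP, and 607, 432 and 567 CPM after MPTP+PF4, with a log2 fold change of 1.24 (SE 0.415) for MPTP against control. Slc1a2, the other astrocytic transporter, had 0.71 (SE 0.335) for MPTP+PF4 against control, the glutaminase Gls2 −0.72 (SE 0.323) for MPTP against control and glutamine synthetase, Glul, 0.14 (SE 0.168) for MPTP+PF4 against MPTP. The 6 astrocyte marker genes summed to 687 to 1100 CPM in controls and 540 to 740 CPM with MPTP. Controls 2 and 3 were the lowest of the 9 libraries for Slc1a3, and the part of the astrocyte genes in it was not tested.

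The authors' deposited table, whose calls rest on DESeq2 with limits of 0.05 for p (adjusted or not is not stated) and 2 for the fold change, lists Grik3 and Grm5 as up between control and MPTP. It lists no member between MPTP and MPTP+PF4. Between MPTP+PF4 and control the authors' deposited table lists Grik4 as up and Gria2 and Grm5 as down. In that column up stood for higher in control, since the mean of Grik4 was 24.1 CPM (SD 9.68, n = 3) for controls but 11.6 CPM (SD 4.93, n = 3) for MPTP+PF4. The share of all genes that the authors called was not counted, so their calls of members have no background here. With DESeq2 at an adjusted p under 0.05, no member passed in any comparison, while 1.66%, 0.0926% and 0.0579% of all genes did for MPTP against control, MPTP+PF4 against MPTP and MPTP+PF4 against control. At an unadjusted p under 0.05 in DESeq2, with no limit on the fold change, 4, 0 and 7 members passed in the same order. The shares of all genes were then 22.0%, 2.5% and 22.9%. With limma's voom and sample weights, which let libraries count unequally, 17 members passed for MPTP against control beside 51.7% of all genes, 17 for MPTP+PF4 against control beside 54.4%, and 0 for MPTP+PF4 against MPTP beside 0.0116%.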

How the data were processed

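Gene counts and FPKM for 9 libraries were taken from 1 table that the authors deposited. The count columns are whole-number read counts per gene, per the file headers, and the authors' FPKM columns, so named per the file headers, are per transcript length and sequencing depth. The authors' calls in words used DESeq2 with limits of 0.05 for p and 2 for the fold change, as the file headers state. The submitters' processing notes name the build mm9; the aligner, the read counter and strandedness are not given in the sources used here, so antisense reads cannot be told apart. Of 29001 lines, 10 whose annotation text had broken across lines were dropped, and 6955 of the 28991 genes were loci without a known gene (0.983% to 1.23% of counts). Gene positions are from GENCODE on GRCm38 and were not converted; all 29 identifiers matched.

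The main test was that of edgeR 4.0.16 under R 4.3.3 (quasi-likelihood, robust, TMM, filterByExpr, all 9 libraries in 1 fit), with Benjamini-Hochberg adjustment over 17285 genes and 0.05 as the threshold; SE is the log2 fold change divided by the root of F. The fit was also run on simulated counts with known changes, and how many of these it recovered is not given here. FPKM was compared with CPM on plain library totals, without the TMM factors of 0.928 to 1.08 that the CPM given elsewhere include. FPKM per such CPM was even between libraries for most members (median ratio of highest to lowest 1.03). The ratio was 1.98 for Grin3b, 1.30 for Grik2, 1.23 for Grik4 and 1.22 for Gria4, so their FPKM are less certain. Gria4 enters the shares of the AMPA subunits. Alternatives were DESeq2 1.42.0, limma 3.58.1 (voom with sample weights), other scalings and filters, the replicate block and left-out libraries. Replicates were separate mice per the design text; no pair of libraries agreed within sampling noise (lowest chi-square per degree of freedom 28.1). Nothing in the labels says that replicate numbers pair the mice, so the numbers were not taken as pairs. Of the same-numbered pairs 6 of 9 correlated over 0.1, and differently numbered pairs correlated at −0.539 to 0.489. These values do not settle whether libraries of a number share a source, and the replicate block is given as an alternative. A level of 3 counts equals 0.0821 to 0.1 CPM on the TMM scale, counting error only. The members, lists and tests were chosen with earlier results of these data known. All members are named, with values per library for those with the highest mean level of a family or one of the 6 smallest p in a comparison, and for some others chosen after their values were seen; of each list of partner genes, members with the smallest p.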

Additional observations from a re-analysis of the deposited data

How the results depend on the processing

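Across 23 member results under 20 alternatives each, 408 of 460 values kept their direction and side of the threshold, 36 passed it where the reported value did not, and 16 changed sign. No reported member value was past the threshold, so none could be lost. The member counts called went from 0 to 17 (MPTP against control) and 17 (MPTP+PF4 against control) with limma voom and sample weights, with 8943 and 9395 genes called, beside 2 genes for MPTP+PF4 against MPTP. DESeq2 called 287, 16 and 10 genes in the 3 comparisons and no member. Without control 1 and MPTP+PF4 2, 11 and 14 members and 5629 and 5980 genes were called against control; without the 3 libraries lowest in striatal genes (controls 2 and 3, MPTP+PF4 2) 1 gene each was, and the member median for MPTP against control was 0.028. Leaving out 1 library gave 0 to 6 members and 0 to 4577 genes for MPTP against control, and 0 to 11 members and 0 to 4539 genes for MPTP+PF4 against control, each highest without control 1. For MPTP+PF4 against control, the count of members at an unadjusted p under 0.05 was 10 without MPTP+PF4 2 (23.2% of all genes) and 4 with it (18.3%). The cause of these differences was not tested. Leaving out 1 library, the difference in the Slc17a7 share ranged from −18.6 to 22.3 points for MPTP against control, −18.5 to 22.4 for MPTP+PF4 against MPTP and −9.16 to 13.8 for MPTP+PF4 against control, and that in the Gria2 share from −2.89 to 3.89 for MPTP+PF4 against MPTP, 6.2 to 10.5 for MPTP against control and 5.05 to 11.8 for MPTP+PF4 against control. The difference in the Grin2b share ranged from 16.3 to 31.7, −9.91 to −5.53 and 8.89 to 24.4 points in the 3 comparisons. Sign changes of single members for MPTP against control were Slc17a7 at 0.24 without control 3 and 0.68 without those 3 libraries, and Grik4 at 0.00063 in the latter. For MPTP+PF4 against MPTP they were Grin2d at 0.00061 with limma voom and 0.25 without MPTP 2, Slc17a7 at −0.042 without MPTP 2, and Slc17a6 at −0.66 with limma voom, −1.65 without MPTP+PF4 2, −1.67 with control 1 also left out and −1.65 with controls 2 and 3 also left out. For MPTP+PF4 against control they were Slc17a6 at 0.25 without control 2, 0.39 without MPTP+PF4 1 and 0.40 without MPTP+PF4 3, and Slc17a7 at 0.76 without control 3, 0.26 without MPTP+PF4 3 and 0.90 without those 3 libraries. With 1 library left out, the log2 fold change for MPTP+PF4 against MPTP ranged from −0.75 to 0.25 for Grin2d, −1.65 to 1.44 for Slc17a6 and −0.042 to 1.40 for Slc17a7, and for MPTP+PF4 against control from −2.33 to 0.40 for Slc17a6 and −0.67 to 0.76 for Slc17a7. The replicate numbers are not stated to pair the mice. Same-numbered libraries correlated at −0.291 to 0.519, with 6 of 9 pairs over 0.1, and differently numbered ones at −0.539 to 0.489. The replicate block left 0 members and 0 genes called in each comparison, with member medians of 0.22, −0.014 and 0.26. Under the block, the members at an unadjusted p under 0.05 went from 2 to 9 for MPTP against control (all genes from 18.2% to 22.7%) and from 4 to 10 for MPTP+PF4 against control (18.3% to 22.3%). With 3 libraries a group, exact tests cannot go below 0.1.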
